A study of Mus musculus and Homo sapiens with 10 samples.

Results

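The replication-dependent histone cluster on the short arm of human chromosome 6 was described in TK6, an established human lymphoblastoid cell line, as a set of 1 kb windows. It was taken by position alone, as the HIST1 cluster in GRCh37: part 1 runs from 26017001 to 26285000 and part 2 from 27775001 to 27870000 on chromosome 6. Part 1 holds 268 windows and part 2 holds 95, so the cluster has 363 windows, against 2405935 windows of chromosomes 1 to 22 and X with a break end in at least 1 TK6 library. The stretch between the parts, from 26285001 to 27775000, holds 1490 windows and was the set against which the cluster was compared. Break ends were counted by in-suspension BLISS, an assay that ligates an adapter to blunted double-strand breaks of cells held in suspension and sequences the adjoining DNA. The groups were 2 libraries of TK6 cells treated with etoposide and 2 libraries of TK6 cells with DMSO, the vehicle; dose and time are not given in the labels. The 6 libraries of mouse enterocytes in the same series were not used here. No expression was measured, so the cell type could not be checked against its markers.

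Replication-dependent histone genes encode the core histones and the linker histones that package newly made DNA. They are short, lack introns and are transcribed mainly during S phase, in a nuclear body that forms on the clustered genes, and their messages end in a stem-loop in place of a poly(A) tail. Topoisomerase II passes one DNA duplex through another by way of a transient double-strand break, and etoposide keeps the enzyme from resealing it. Etoposide breaks are known to gather at active promoters and at the bases of chromatin loops. A few histone genes are known to lie inside the stretch as well, beside butyrophilin, zinc finger and transfer RNA genes, so the stretch is not free of histone genes. No annotation or sequence of GRCh37 was used here, so no window was assigned to a gene and no sequence is shown. Histone genes have near-identical copies, and how reads that match several copies were counted is not given in the sources used here, so single windows carry that uncertainty.

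The etoposide libraries held 11452803 and 8931105 break ends on chromosomes 1 to 22 and X, and the DMSO libraries 1080105 and 584243. Break ends per 1000000 of these totals (EPM) set the libraries on 1 scale. EPM, the ratios within a library and the scaled tests below compare shares of break ends. A change of the total number of breaks with treatment is removed by this scaling and was not tested. Whether replicates were grown as separate cultures is not in the labels, so the tests measure only the spread between libraries, which may be technical. Copy number of the locus was not measured. Intervals given below cover counting error only, since the files do not state whether reads or molecules were counted.

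The cluster was break-dense in all 4 libraries. In the etoposide libraries it held 4496 and 4684 break ends, or 393 EPM (Wilson 95% interval 381 to 404) and 524 EPM (509.7 to 539.7). In the DMSO libraries it held 463 and 346 break ends, or 429 EPM (391 to 469.5) and 592 EPM (533 to 658). Each group had a lower first replicate and a higher second one, and the groups overlapped. The mean was 459 ± 93.3 EPM after etoposide and 510.4 ± 116 EPM in DMSO (SD, n = 2 each), and the difference of -0.15 on the log2 scale was smaller than the spread between libraries (two-sided exact permutation p = 0.667; the smallest p of 2 against 2 is 0.333).

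Per kb of sequence, part 1 carried 1.03 and 1.39 EPM after etoposide, against 1.15 and 1.46 EPM in DMSO. Part 2 carried 1.23 and 1.61 EPM per kb after etoposide, against 1.27 and 2.13 EPM per kb in DMSO. Part 2 was thus above part 1 in density in each of the 4 libraries, with part 1 over part 2 at 0.841 and 0.865 after etoposide and at 0.908 and 0.685 in DMSO. This order did not hold in every setting. With the top window of each region left out, part 1 over part 2 was 1.01 in DMSO replicate 1. After thinning to the shallowest library it was 1.13 in etoposide replicate 2. With all windows and break ends, the etoposide minus DMSO difference of part 1 over part 2 was 0.11 on the log2 scale (exact permutation p = 1.0). The stretch carried 0.396 and 0.362 EPM per kb after etoposide, against 0.425 and 0.422 in DMSO. The genome value of 0.416 EPM per window covers only windows with a break end; over its 1166 such windows the stretch had 0.506 and 0.462 after etoposide, against 0.543 and 0.539 in DMSO, and so lay above it. The rest of chromosome 6 had 0.289 and 0.249 EPM per kb after etoposide, against 0.300 and 0.273 in DMSO, with windows that held no break end counted in its length.

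**Figure D1:**
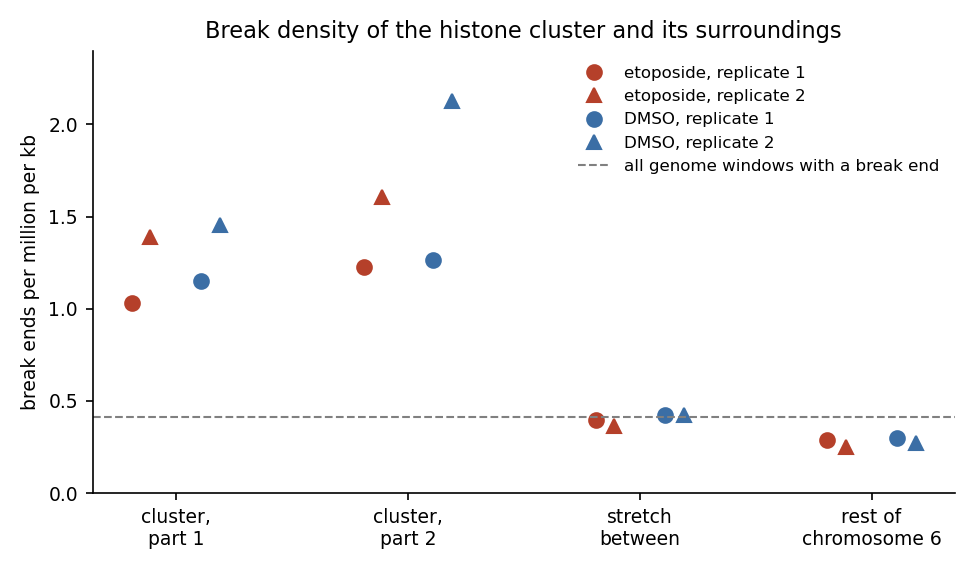
Break ends per 1000000 of the library (EPM) per kb in part 1, part 2, the stretch and the rest of chromosome 6, 1 point per library, with etoposide in red, DMSO in blue, circles for replicate 1 and triangles for replicate 2; the dashed line is the mean of all genome windows with a break end. The parts of the cluster lie between 1.03 and 2.13, above every value of the stretch, which lies between 0.362 and 0.425.

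Against the other 28266 bins of 100 kb of the genome, part 2 reached 142 EPM per 100 kb after etoposide, a level met or passed by 3.83% of bins, and 169.6 EPM per 100 kb in DMSO, met or passed by 0.860%. Part 1 reached 121 EPM per 100 kb after etoposide, met or passed by 5.42% of bins, and 130.3 in DMSO, met or passed by 2.70%. The median bin held 19.6 EPM after etoposide and 23.5 in DMSO. The cluster as a whole thus stood at 6.43 times the median bin after etoposide and 5.99 times in DMSO, and the stretch at 1.93 and 1.80 times.

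Within each library, the density of the cluster was divided by that of the stretch, which removes depth. The ratio was 2.73 (Wilson 95% interval 2.63 to 2.84) and 3.99 (3.84 to 4.16) in the etoposide libraries. It was 2.78 (2.47 to 3.13) and 3.87 (3.34 to 4.48) in the DMSO libraries. The cluster was denser than the stretch in 4 of 4 libraries, by 1.72 on average on the log2 scale (two-sided exact sign-flip permutation p = 0.125, the smallest that 4 libraries allow). The mean log2 ratio was 1.72 ± 0.39 after etoposide and 1.71 ± 0.34 in DMSO (SD, n = 2 each), a difference of 0.01 (exact permutation p = 1.0).

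Part 1 alone stood at 2.60 and 3.84 times the stretch after etoposide, and at 2.71 and 3.45 times in DMSO. Part 2 stood at 3.10 and 4.44 times after etoposide, and at 2.98 and 5.04 times in DMSO. The second replicate of each group was above the first for both parts. Replicate 2 over replicate 1 of the cluster ratio was 1.46 (counting interval 1.38 to 1.54) in etoposide and 1.39 (1.15 to 1.68) in DMSO, and these intervals do not include equality. The same libraries also differed elsewhere in the genome: chromosome 19 had 1.82 and 2.43 times the mean density after etoposide, and 1.63 and 2.08 times in DMSO. What set the replicates apart was not tested.

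**Figure D2:**
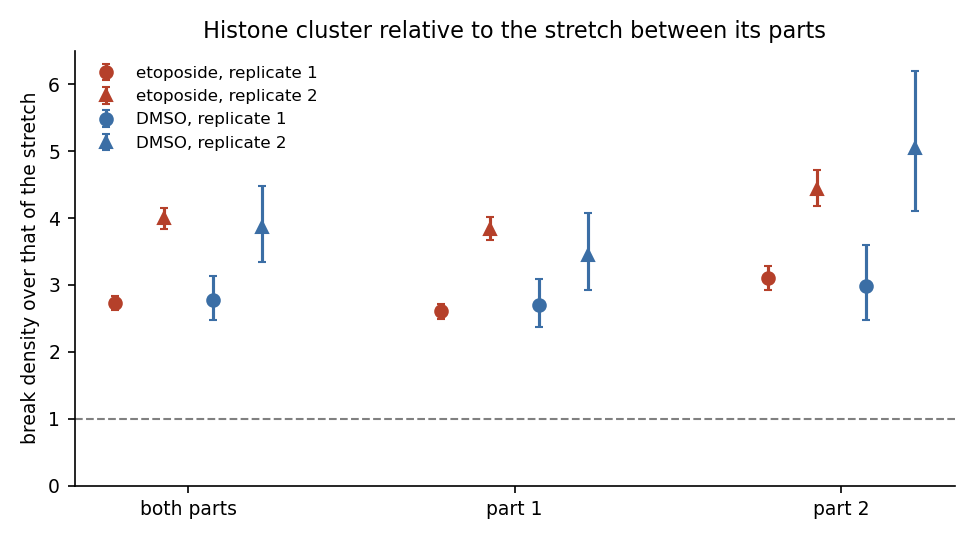
Break density of the cluster and of each part divided by that of the stretch in the same library; bars are Wilson 95% counting intervals, red is etoposide, blue is DMSO, circles are replicate 1 and triangles replicate 2. For both parts together the ratios are 2.73 and 3.99 after etoposide and 2.78 and 3.87 in DMSO, all above the dashed line at equality.

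The cluster also stood above other comparison sets. Against outer flanks of 500 kb on each side, the cluster stood at 3.14 and 4.86 times after etoposide and at 3.42 and 5.35 times in DMSO. Of the stretch, 324 of 1490 windows (21.7%) held no break end in any library, against 15 of 268 in part 1 and 5 of 95 in part 2. With such windows left out of the length, a choice made after seeing the data, the cluster stood at 2.26 and 3.31 times the stretch after etoposide and at 2.30 and 3.20 times in DMSO. Of the 324 empty stretch windows, 283 lay in a span of 440 kb, 26660001 to 27100000, that held 514 and 306 break ends after etoposide and 48 and 25 in DMSO. Whether reads map uniquely there was not tested. The densest 100 kb of the stretch ran from 27095001 to 27195000, and without it the cluster stood at 2.88 and 4.51 times the stretch after etoposide and at 2.98 and 4.40 times in DMSO.

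Along the locus, density stepped down at the inner edges of the cluster. The 100 kb bins from 26000001, 26100001 and 26200001, which hold part 1, had 110.4 ± 32.2, 114.5 ± 23.8 and 107.6 ± 10.9 EPM after etoposide, against 113.9 ± 30.1, 119.5 ± 22.3 and 130.6 ± 6.6 in DMSO (SD, n = 2 each). The next bin, from 26300001, had 43.0 ± 5.8 EPM after etoposide and 48.6 ± 5.8 in DMSO. The bin from 27800001, which holds most of part 2, had 105.4 ± 17.4 EPM after etoposide and 119.3 ± 27.3 in DMSO. The bin from 27700001 spans the end of the stretch and the start of part 2. It had 72.2 ± 4.2 EPM after etoposide and 84.6 ± 28.0 in DMSO. The bin from 27600001, inside the stretch, had 51.1 ± 9.9 EPM after etoposide and 59.1 ± 1.1 in DMSO. Inside the stretch the bins from 26500001 (83.5 ± 3.9 after etoposide, 77.6 ± 6.4 in DMSO) and 27100001 (78.8 ± 17.1 after etoposide, 96.4 ± 21.1 in DMSO) came closest.

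**Figure D3:**
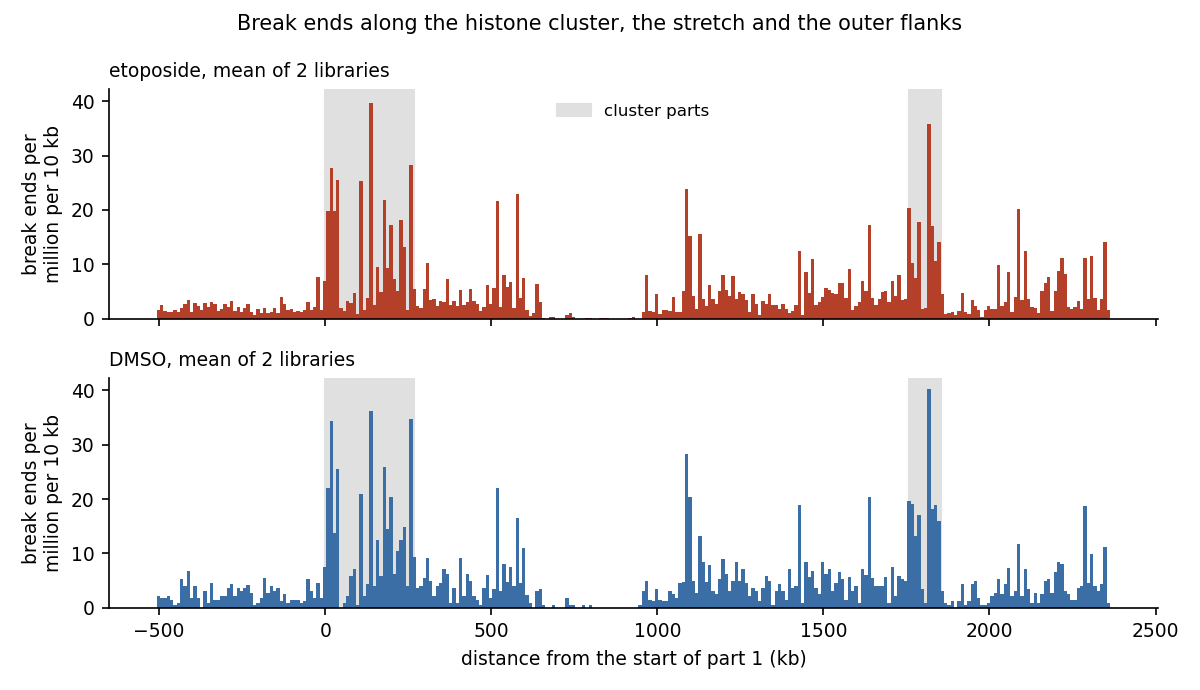
Break ends per 1000000 (EPM) in 10 kb windows, as the mean of 2 libraries, etoposide above and DMSO below, by distance from the start of part 1; grey marks the parts of the cluster and the plot runs 500 kb past each end. Both groups show the same tall windows inside the parts, lower ones in the stretch and a nearly empty span of it.

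The break ends of the cluster were not spread evenly over its windows. A window was called dense in a library when its count put it among about 1% of the 2405935 windows of the genome with most break ends. This took at least 34 and 45 break ends in the etoposide libraries, and 4 and 3 in the DMSO libraries. By that rule 37 of 363 windows (10.2%) were dense in etoposide replicate 1, against 1.07% of the genome, and 32 (8.82%) in etoposide replicate 2, against 1.01%. In DMSO, 42 windows (11.6%) were dense in replicate 1, against 1.12% of the genome, and 43 (11.8%) in replicate 2, against 1.52%. The stretch had 1.28% and 1.41% dense windows after etoposide, and 1.54% and 1.74% in DMSO. Over windows with a break end, as the genome shares are, the stretch had 1.63% and 1.80% after etoposide, against 1.97% and 2.23% in DMSO, and the cluster 10.8% and 9.33% after etoposide, against 12.2% and 12.5% in DMSO. The stretch was thus also above the genome, by far less than the cluster.

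Dense in both etoposide libraries were 20 windows of part 1 (7.46%) and 11 of part 2 (11.6%), against 17 of 1490 in the stretch (1.14%) and 0.739% of the genome. In part 1 they formed 13 runs of adjacent windows, 7 of them a single window and the longest 3 kb, with a median step of 14.5 kb to the next run. In part 2 they formed 7 runs with a median step of 11 kb, and in the stretch 15 runs with a median step of 55.5 kb. Dense windows of the cluster thus came as short, repeated peaks. The longest interruption in part 1 spanned 65 kb, from 26058001 to 26123000. That span held 24.3% of the length of part 1 and 7.30% and 3.43% of its break ends after etoposide, and 6.01% and 4.82% in DMSO. Its density of 0.310 and 0.196 EPM per kb after etoposide, and 0.285 and 0.290 in DMSO, lay below that of the stretch. It also lay below the stretch windows not dense in both etoposide libraries. Those carried 0.346 and 0.272 EPM per kb after etoposide, and 0.373 and 0.354 in DMSO. The span was picked for holding no window dense in both etoposide libraries, so its etoposide values are low partly by that choice. In part 2 the longest such span was 26 kb, from 27807001 to 27833000, with 0.497 and 0.405 EPM per kb after etoposide and 0.320 and 0.461 in DMSO.

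**Figure D4:**
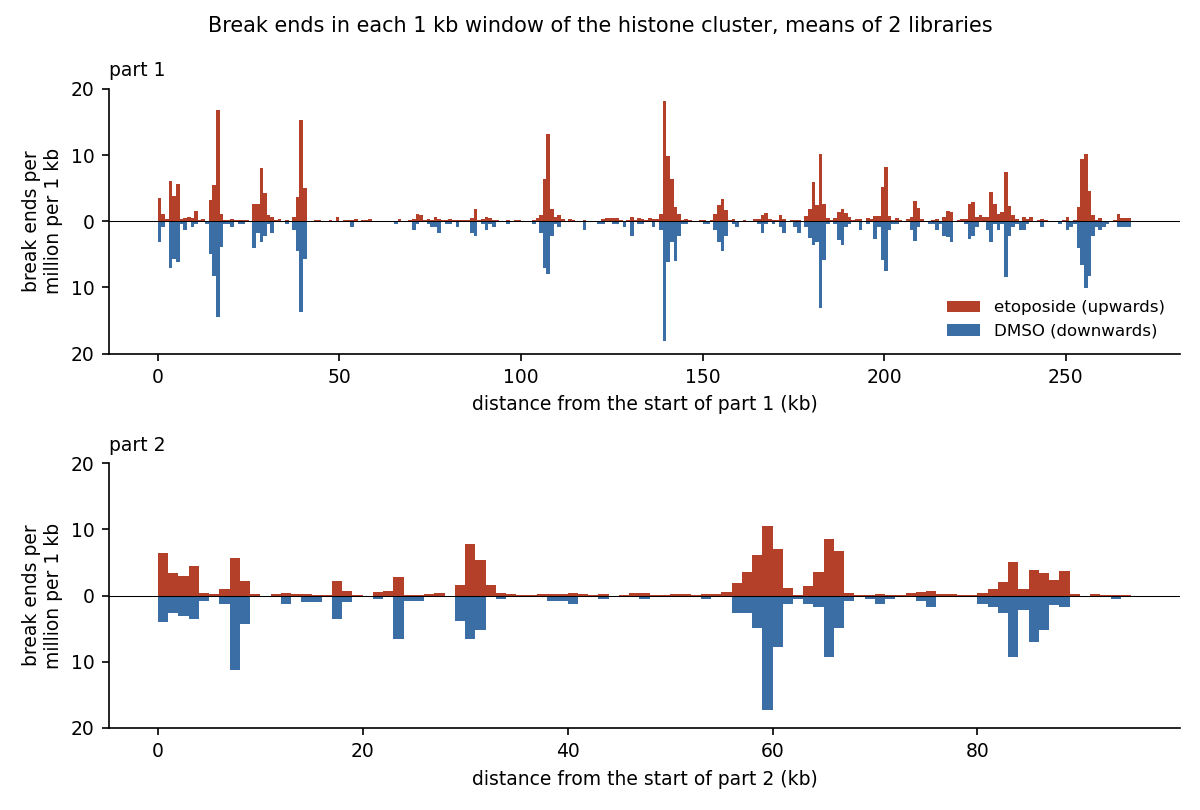
Break ends per 1000000 (EPM) in every 1 kb window of part 1 (upper panel, 268 windows) and part 2 (lower panel, 95 windows) by distance from the start of the part, with the mean of 2 etoposide libraries drawn upwards and of 2 DMSO libraries downwards. The tallest window of part 1 reaches 18.2 in etoposide and 18.1 in DMSO, and peaks of both groups stand at the same places with gaps between them.

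The window of part 1 with most break ends, 26156001 to 26157000, held 128 and 226 after etoposide, against 15 and 13 in DMSO. That was 18.2 ± 9.99 EPM after etoposide and 18.1 ± 5.91 in DMSO (SD, n = 2 each), and 0.0044% of the windows of the genome reached its etoposide level. The next window, 26157001 to 26158000, belonged to the same run and held 89 and 107 break ends after etoposide, against 6 and 4 in DMSO. The window 26033001 to 26034000 held 133 and 198 after etoposide, against 11 and 11 in DMSO. The window 26056001 to 26057000 held 111 and 186 after etoposide, against 11 and 10 in DMSO. These 3 windows were the highest of part 1 in both groups by the mean; between the second and the third, the DMSO libraries differed by 1 break end. Window 26124001 to 26125000 held 98 and 160 after etoposide, against 6 and 6 in DMSO. Window 26199001 to 26200000 held 85 and 116 after etoposide, against 6 and 12 in DMSO. Toward the inner end of part 1, windows 26271001 to 26272000 and 26272001 to 26273000 held 78 and 108 and then 74 and 124 after etoposide, against 5 and 5 and then 9 and 7 in DMSO. All 5 windows with the highest DMSO mean in part 1 were among the 8 with the highest etoposide mean.

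In part 2 the window with most break ends was 27834001 to 27835000, with 97 and 111 after etoposide, against 19 and 10 in DMSO. Its level of 10.4 ± 2.80 EPM after etoposide lay below its 17.4 ± 0.336 EPM in DMSO. The groups did not overlap, but this window was picked as the highest of part 2. How many other windows separate the groups was not counted. The small DMSO SD depends on the scaling. In the scaling of edgeR's test below, the levels were 10.7 and 9.72 after etoposide, against 23.3 and 13.1 (SD 7.24) in DMSO. This window did not pass that test (adjusted p = 0.767). Its neighbours from 27833001 and 27835001 held 61 and 61 and then 54 and 83 after etoposide, against 5 and 3 and then 4 and 7 in DMSO, so that this peak was 3 kb wide. The window 27840001 to 27841000 held 70 and 97 after etoposide, against 9 and 6 in DMSO, and 27841001 to 27842000 held 67 and 68, against 5 and 3. The window 27805001 to 27806000 held 66 and 88 after etoposide, against 5 and 5 in DMSO. The first window of part 2, 27775001 to 27776000, held 46 and 78 after etoposide, against 3 and 3 in DMSO. Window 27782001 to 27783000 was uneven between the DMSO libraries, with 46 and 65 after etoposide, against 4 and 11 in DMSO. Window 27858001 to 27859000 held 38 and 60 after etoposide, against 7 and 7 in DMSO. Of the 5 windows highest in DMSO, 4 were among the 8 highest after etoposide.

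The densest window of the stretch reached the level of the top of part 2 after etoposide, and lay below it in DMSO. Its top window, 27145001 to 27146000, held 76 and 148 break ends after etoposide, against 7 and 6 in DMSO, or 11.6 ± 7.03 EPM after etoposide and 8.38 ± 2.68 in DMSO. The window 26596001 to 26597000 held 81 and 92 after etoposide, against 9 and 3 in DMSO, and 27107001 to 27108000 held 54 and 96, against 4 and 9. In the densest 100 kb of the stretch, windows 27100001 to 27101000 and 27101001 to 27102000 held 58 and 69 and then 55 and 82 after etoposide, against 6 and 4 and then 10 and 3 in DMSO. Of the 5 stretch windows highest in DMSO, 3 were among the 8 highest after etoposide.

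Windows chosen in etoposide libraries were then read in the DMSO libraries, which had no part in the choice. The 31 cluster windows dense in both etoposide libraries make up 8.54% of the cluster. They held 42.8% and 51.2% of its break ends in DMSO, and every one of the 31 had a break end in each DMSO library. In DMSO these windows carried 5.91 and 9.77 EPM per kb, against 0.739 and 0.871 in the other 332 windows, 8.0 and 11.2 times as much. The stretch shared this trait. All 17 of its windows dense in both etoposide libraries had a break end in each DMSO library. They stood at 13.1 and 17.6 times the other windows of the stretch in DMSO. In the etoposide libraries that chose them, the 31 cluster windows carried 5.75 and 10.5 EPM per kb, against 0.645 and 0.603 in the other windows of the cluster. So the second replicate was above the first in the dense windows of both groups, while the other windows did not show that order in the etoposide libraries. Read the other way, the 42 windows dense in DMSO replicate 1 held 50.02% and 64.1% of the break ends of the cluster in the etoposide libraries. Outside the dense windows of either region, the cluster still had 1.86 and 2.21 times the density of the stretch after etoposide and 1.98 and 2.46 times in DMSO.

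Counts per window also ran in parallel between libraries. Over the 363 windows, Pearson's r was 0.957 between the etoposide libraries and 0.784 between the DMSO libraries, and 0.829 to 0.863 between an etoposide and a DMSO library. Over the 1490 windows of the stretch, the value between an etoposide and a DMSO library was 0.678 to 0.697. Rank correlations (Spearman), which weigh the dense windows less, were lower. In the cluster they were 0.807 between the etoposide libraries, 0.584 between the DMSO libraries and 0.658 to 0.690 between the groups. In the stretch they were 0.409 to 0.456 between the groups. These values are descriptions: windows of a library share its depth and neighbouring windows are not independent.

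The width of the peaks was read around the densest 100 bp of each run, with the centre chosen in etoposide replicate 1. The runs were those of windows dense in both etoposide libraries, so etoposide replicate 2 had a part in choosing them. Around the 13 centres of part 1, the 100 bp at the centre carried 3.83 EPM in etoposide replicate 2, against 1.64 and 1.97 in DMSO, and the level 3 to 5 kb away was 0.0839 in that etoposide library, against 0.0933 and 0.0940 in DMSO. The centre was 45.7 times the level 3 to 5 kb away in etoposide replicate 2, and 17.6 and 21 times in DMSO. Within 500 bp of the centre the mean was 14.6 times that level in etoposide replicate 2, against 6.73 and 11.6 times in DMSO, and at 1 to 2 kb it was 3.92 times, against 2.71 and 3.78 times. Around the 15 centres of the stretch, the centre was 50.7 times the level 3 to 5 kb away in etoposide replicate 2, against 28.8 and 19.4 times in DMSO, so the stretch had such peaks too. Around the 7 centres of part 2, the centre was 13.8 times the level 3 to 5 kb away in etoposide replicate 2, against 5.83 and 8.65 times in DMSO. The DMSO levels at the centres, 0.661 and 1.71 EPM in part 2, rest on few break ends and have no interval. At 500 to 1000 bp part 2 was still at 2.97 times in etoposide replicate 2, and at 4.08 and 3.34 times in DMSO. The lead of etoposide at the exact centre rests on 1 etoposide library, since the other chose the centres. Etoposide replicate 2 also helped choose the runs and DMSO did not, so its lead cannot be told apart from that choice. The lead was not tested.

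**Figure D5:**
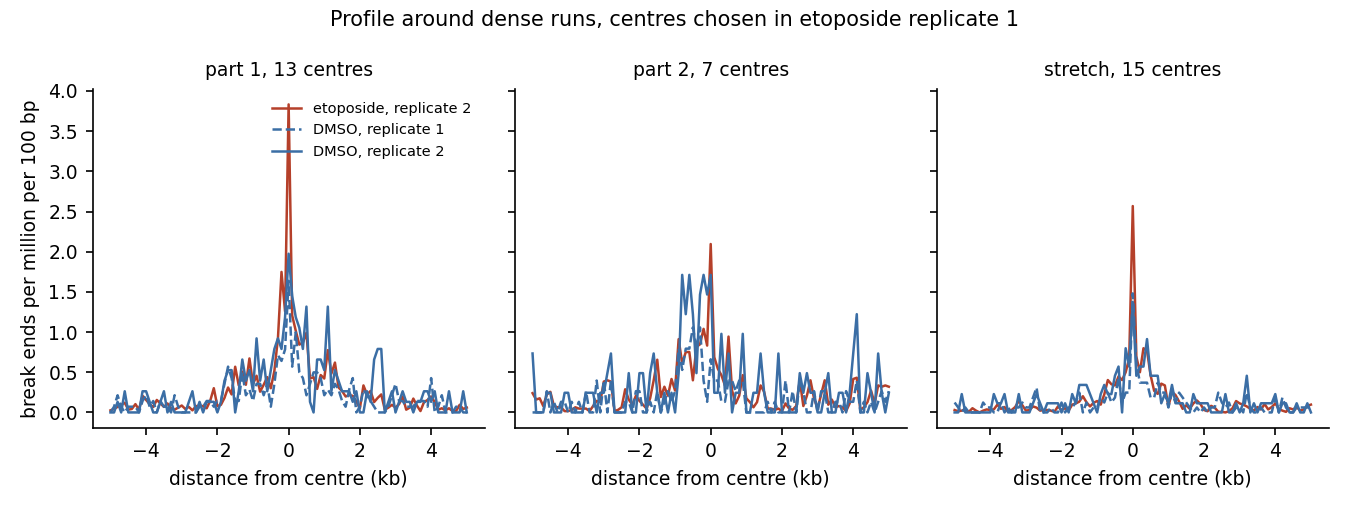
Mean break ends per 1000000 (EPM) per 100 bp around the centres of dense runs, by distance from the centre. There were 13 runs of part 1, 7 of part 2 and 15 of the stretch, all dense in both etoposide libraries. Centres were chosen in etoposide replicate 1, which is not drawn. Etoposide replicate 2 (red) reaches 3.83 at the centre of part 1, DMSO replicate 1 (dashed blue) 1.64 and DMSO replicate 2 (solid blue) 1.97, and all fall to about 0.1 within a few kb.

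At single-base resolution, break ends of the cluster recurred at the same positions after etoposide. Positions that carried more than 1 break end made up 25.7% and 40.5% of its break ends in the etoposide libraries, against 4.32% and 2.02% in DMSO. In the stretch these were 14.1% and 22.3% after etoposide, against 1.02% and 1.63% in DMSO, and in the rest of chromosome 6 they were 10.1% and 16.3%, against 1.38% and 0.894%. Recurrence grows with depth. After thinning each library at random to 584243 break ends, the cluster had 2.02% and 6.45% after etoposide, against 2.37% and 2.02% in DMSO, over 247 and 310 break ends after etoposide and 253 and 346 in DMSO. The stretch then had 1.60% and 5.86% after etoposide, against 1.09% and 1.63% in DMSO, and the rest of chromosome 6 had 0.993% and 2.54%, against 0.928% and 0.894%. In all 3 sets, etoposide replicate 2 stood above the other libraries.

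The position of part 1 with the highest etoposide mean was 26032241, with 8 and 17 break ends after etoposide, against 0 and 1 in DMSO. Position 26056822 followed with 6 and 16 after etoposide, against 1 and 0 in DMSO, and position 26156467 had 7 and 15, against 0 and 1. In part 2 the highest was 27863525, with 15 and 11 after etoposide, against 0 and 0 in DMSO, followed by 27805947 with 11 and 12, against 0 and 1. Of positions with at least 5 break ends, the etoposide libraries shared 11 in part 1, which is 57.9% of those in replicate 1 and 15.5% of those in replicate 2, and 7 in part 2, or 77.8% and 41.2%. DMSO positions rested on few break ends: the highest of part 1, 26056149, had 1 and 3 after etoposide, against 0 and 4 in DMSO.

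The effect of treatment on the share of break ends in single windows was tested on all 1 kb windows of the genome at once. This used edgeR's quasi-likelihood test and Benjamini-Hochberg adjustment. The filter on low counts passed 93536 windows, of which 69 of 363 lay in the cluster (45 in part 1, 24 in part 2), so the values below do not describe all members. Of the 69, 0 were called at an adjusted p under 0.05 (smallest adjusted p = 0.767), against 5 called windows in the genome (0.00535%), all lower after etoposide. Without adjustment, 3 of 69 (4.35%) had p under 0.05, against 6.32% of all windows tested, and DESeq2 also called 0 of the 69. Of the 69 log2 fold changes, 29 were positive and 40 negative. Their median was -0.11, against a median of 0.18 over all windows tested. In the stretch, 18 of 48 were positive and 30 negative, with a median of -0.23. The split depends on the filter. With only 10 break ends in total asked for, 99 of 153 cluster windows were positive and 54 negative (median 0.30). For the stretch these were 241 and 96 of 337 (median 0.48), against a median of 0.70 over all windows then tested. The 69 values of the main test had standard errors (SE) from 0.37 to 1.27. Here and below, the SE of an edgeR value is its absolute log2 fold change divided by the square root of the F statistic. Of windows simulated with a 4-fold change, 6% were recovered. These simulated windows were drawn from all 93536 tested, and those that failed the filter on simulated counts, which passed 76220, counted as not recovered. In windows of the genome at large, a change of that size would thus mostly have gone undetected at this depth. The share recovered among the 69 was not measured.

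The 3 windows with an unadjusted p under 0.05 pointed both ways. Window 26045001 to 26046000 held 64 and 95 break ends after etoposide, against 3 and 2 in DMSO, which gave 1.28 on the log2 scale (SE 0.56, adjusted p = 0.767). Window 26200001 to 26201000 held 23 and 28 after etoposide, against 7 and 3 in DMSO, which gave -1.34 on that scale (SE 0.58, adjusted p = 0.767). The top window of part 2, from 27834001, had -0.85 (SE 0.37, adjusted p = 0.767). None of the 3 passed. The extremes were no better resolved. The filter on low counts can pass a window on the level of a single group, which favours extremes in either direction. No conclusion is drawn from them. In part 1 the lowest value was -1.79 (SE 0.86) in the window from 26034001, with 11 and 11 break ends after etoposide, against 3 and 3 in DMSO, and the highest was 1.98 (SE 1.27) in the window from 26247001, with 30 and 22, against 1 and 0. In part 2 the lowest was -0.99 (SE 0.61) in the window from 27798001, with 32 and 26 after etoposide, against 3 and 6 in DMSO. The highest in part 2 was 1.58 (SE 1.04) in the window from 27863001, with 48 and 29 after etoposide, against 0 and 2 in DMSO, which holds the recurrent position 27863525.

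In windows of 10 kb, 30 lay wholly inside the parts and passed the filter, and 0 of them were called (smallest adjusted p = 0.9999), against 1 of 138873 in the genome (0.00072%); 1 of the 30 (3.33%) had an unadjusted p under 0.05, against 3.20% of all windows tested, and DESeq2 called 0. That window, 26230001 to 26240000, held 71 and 34 break ends after etoposide, against 17 and 3 in DMSO, or -1.03 on the log2 scale (SE 0.50). The highest was 0.73 (SE 0.77) in the window from 26040001, with 183 and 212 after etoposide, against 15 and 8 in DMSO. With each part entered as 1 row among the 100 kb bins of the genome, 4 of 27824 rows were called (0.0144%), none of them a part of the cluster. On the log2 scale, the value of part 1 was 0.15 (SE 1.55), that of part 2 was -0.01 (SE 0.82) and that of the stretch was 0.06 (SE 2.51), each with an adjusted p of 0.999. These errors come wholly from edgeR's trend of the spread with abundance, which stood at 7.91, 2.48 and 19.8 for these rows, against a median of 1.11 over all rows; 13 rows were at least as abundant as part 1 and 4 as the stretch, each counting itself. DESeq2, whose SE comes from its own fit and is not derived in the same way, gave 0.15 (SE 0.45), -0.02 (SE 0.48) and 0.06 (SE 0.39). The signs of part 1 and of the stretch turn when libraries are scaled by size without TMM (-0.10 and -0.16), a scaling under which the median of all rows is -0.17, against 0.02 with TMM.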

How the data were processed

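Break ends of 4 TK6 libraries were used. The submitters' processing notes name BWA and GRCh37. Its version, any filter on mapping and the treatment of duplicates are not stated. The deposited files list chromosome, position and a whole-number count of break ends for each library alone, not normalized; repeated lines (7001 and 10322 in the etoposide libraries, 26 and 2 in the DMSO libraries) were added up. Chromosomes 1 to 22 and X were kept. Counts were summed over windows of 1 kb, 10 kb and 100 kb and tested with edgeR 4.0.16 (R 4.3.3), with TMM, filterByExpr, the quasi-likelihood test and Benjamini-Hochberg adjustment over all rows, for etoposide against DMSO. Values of 1 region per library went into exact permutation tests, two-sided. On simulated 1 kb counts with 200 changed windows (76220 tested), 0% were recovered at 2-fold and 6% at 4-fold, with 0 false calls; for the rows of 100 kb (27788) these were 6% and 64%, with 2 false calls. Members, lists and tests were chosen with earlier results of these data known. Windows named are, in part 1, part 2 and the stretch, up to 8 with the highest etoposide mean, up to 5 with the highest DMSO mean, the extremes of the fold changes and the top positions, not all of which are printed; the windows at an unadjusted p under 0.05, the empty span and the gaps were named after their values were seen, and the dense window rule and the profiles were likewise added then. As alternatives, DESeq2 1.42.0, scaling by library size, no filter, a replicate block, positions counted once, thinning, other reference stretches, top windows left out and each library left out were run. A planned comparison of windows with and without a histone gene was not run, since no GRCh37 annotation was used here. Summaries were made in Python 3.11.15 with pandas 2.3.3, numpy 2.4.6 and scipy 1.17.1, and plots with matplotlib 3.10.9.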

Additional observations from a re-analysis of the deposited data

How the results depend on the processing

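The cluster was denser than the stretch in each of the 4 libraries under every alternative run, with a mean log2 ratio of 1.35 (against the side of the stretch next to part 2) to 2.25 (rest of chromosome 6), and of 1.63 to 1.81 with single libraries left out; the exact sign-flip test over 4 libraries cannot go below p = 0.125. The etoposide minus DMSO difference of that ratio (0.01) had no stable sign: it was -0.15 with positions counted once, -0.086, -0.13 and -0.060 against the side of the stretch next to part 1, the outer flanks and the rest of chromosome 6, -0.0067 without the densest 100 kb, and -0.26 to 0.28 with single libraries left out. The difference of the cluster share ran from -0.38 to 0.082, and that of part 1 over part 2 from -0.091 to 0.32, with single libraries left out. With positions counted once, the difference of the cluster share was -0.35, against -0.15 in the main setting. No cluster or stretch window was called in any alternative at 1 kb or 10 kb, the replicate block included. Thinning leaves 4 cluster windows and 0 stretch windows of 1 kb to test, so it says nothing of the stretch there. As single rows, part 1 had -0.10 with library size scaling and -0.13 with positions counted once, and -0.37 to 0.43 with single libraries left out. Part 2, at -0.01 in the main fit, had -0.24 with library size scaling and -0.10 without a filter. It had -0.26 with positions counted once, -0.25 thinned, and -0.50 to 0.52 with single libraries left out. The stretch had -0.16 with library size scaling, -0.016 without a filter, -0.030 with positions counted once, -0.025 thinned, and -0.12 to 0.15 with single libraries left out. The causes were not tested.

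The labels give the groups the same replicate numbers but do not say that these mark pairs. Over 27510 rows of 100 kb with at least 100 break ends, libraries of the same number deviated together from their group means (correlation 0.52). With the replicate block, the difference of the cluster ratio was 0.01, made of etoposide over DMSO ratios of 0.984 (counting interval 0.869 to 1.11) for replicate 1 and 1.03 (0.886 to 1.2) for replicate 2. The block gave -0.15 for the cluster share, made of -0.13 for replicate 1 and -0.18 for replicate 2. For part 1 over part 2 it gave 0.11, made of -0.11 for replicate 1 and 0.34 for replicate 2. As single rows, part 1, part 2 and the stretch had 0.10, -0.01 and 0.05 with the block. In the whole genome 32 windows of 1 kb were called with the block, against 5 without it, 102 of 10 kb, against 1, and 23 rows of 100 kb, against 4. Other settings gave 22 (DESeq2), 21 (positions counted once) and 0 (thinned) called 1 kb windows in the genome; 5 (library size, DESeq2 and thinned), 3 (positions counted once) and 0 (no filter) at 10 kb; and 8 (library size) and 7 (positions counted once) at 100 kb. With a library left out, its group holds 1 library, which is assumed to vary like those of the other group. Without etoposide replicate 1, 31 windows of 1 kb, 102 of 10 kb and 114 rows of 100 kb were called, and without DMSO replicate 1, 0 in each. Without etoposide replicate 2 these were 0, 11 and 3, and without DMSO replicate 2 they were 29, 0 and 3. A planned comparison of windows with and without a histone gene was not run. In DMSO, 155 of the 363 cluster windows held no break end, so no level below 1 break end could be read there.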
